A study of Drosophila melanogaster with 14 samples.

Results

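HeT-A, TAHRE and TART are the non-LTR retrotransposons that form the telomeres of *Drosophila melanogaster*. Their members here were all listed TE insertions whose family name was HeT-A, TAHRE or began with TART, which gave TART-A and TART-B1 and no other TART name. They numbered 469 of the 20426 insertions in all 14 libraries, and 19957 insertions belonged to other families. TAHRE contributed 321 insertions, HeT-A 96, TART-A 33 and TART-B1 19. An insertion in this sense is a point or short interval of the dm6 genome, with the number of reads that support it. By the authors' search, these reads pass into a TE sequence that the reference does not hold there, which was not checked here.

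All 14 libraries came from 1 line, which carries tj-GAL4 together with tubP-GAL80[ts] and sh-piwi in a w background. There tj-GAL4, a driver active in ovarian follicle cells, expresses a short hairpin against *piwi*, and the ubiquitous, temperature-sensitive GAL80 repressor holds the driver back in the cold. The 12 single flies and the piwi-sKD pool belong to the piwi somatic knockdown, kept at 20°C with the last 5 days at 25°C, and the no-KD pool stayed at 20°C. The no-KD pool was made from embryos of 3 to 17 h. The labels call the material of the piwi-sKD pool an adult fly, while the methods of the study describe embryos laid by daughters of the treated mothers. Neither the age nor the sex of the single flies is given in the labels. By the methods of the study the hairpin acted in somatic cells of the ancestors, so the sequenced DNA is that of descendants and not of the depleted cells. Reads were 100 nt long in the pools and 125 nt in the flies, and preparation and sequencing took place at different sites, so that the pooling of animals cannot be told apart from read length and site. Each pool was 1 library and has no replicate.

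In most animals telomerase extends chromosome ends. *Drosophila* lacks it, and HeT-A, TAHRE and TART transpose onto the ends in its place, where they lie head to tail in arrays that lose sequence at the tip and gain new copies. HeT-A encodes only a Gag protein, which binds RNA and directs it to telomeres. TART encodes Gag and a Pol protein with reverse transcriptase. TAHRE shares its untranslated regions and Gag with HeT-A and carries a reverse transcriptase related to that of TART, so that stretches of TAHRE and HeT-A are alike in sequence. All belong to the jockey clade, and in the female germline they are repressed by the piRNA pathway.

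The telomeric elements made up 1.42% to 3.29% of each list. There were 115 of 5096 insertions in the piwi-sKD pool (2.26%, Wilson 95% interval 1.88 to 2.70%) against 120 of 4356 in the no-KD pool (2.75%, 2.31 to 3.28%). These carried 1692 of 47733 supporting reads in the piwi-sKD pool against 1417 of 38580 in the no-KD pool. A fly had 12 to 34 of them, with a median of 17.5 and a mean of 19.5 ± 6.35 (SD, n = 12), on 51 to 180 reads. The share of a fly's insertions was 2.15% ± 0.468 (SD, n = 12). Intervals of single libraries cover counting error only. An insertion needed at least 2 reads to be listed, so that absence from a list means fewer reads than that and not absence of the copy.

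The 4 families differed in how they appeared in flies and pools. TAHRE, the element with its own reverse transcriptase and a HeT-A-like Gag, was the name listed most often in every library. Names were assigned from the ends of the TE sequences, and 38 of the 96 HeT-A insertions had a TAHRE insertion within 20 bp. The counts of TAHRE and HeT-A are thus counts of names and may not give the numbers of their copies. TAHRE had 10 to 29 insertions in a fly with a median of 15.5, and 64 in the piwi-sKD pool against 62 in the no-KD pool. HeT-A, which encodes no reverse transcriptase, had 1 to 4 insertions in a fly, and 31 in the piwi-sKD pool against 38 in the no-KD pool. TART-A, one of the subfamilies of TART, was listed once in each of 5 flies and in no other fly, and 14 times in each pool. TART-B1, another TART subfamily, was listed in 5 flies, with 7 insertions in all, and 6 times in each pool. In reads the order was different, since TART-A, with fewer insertions than HeT-A, had more reads in the pools. The piwi-sKD pool gave 974 reads for TAHRE, 366 for TART-A, 188 for HeT-A and 164 for TART-B1. The no-KD pool gave 903 for TAHRE, 260 for TART-A, 153 for HeT-A and 101 for TART-B1.

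**Figure D1:**
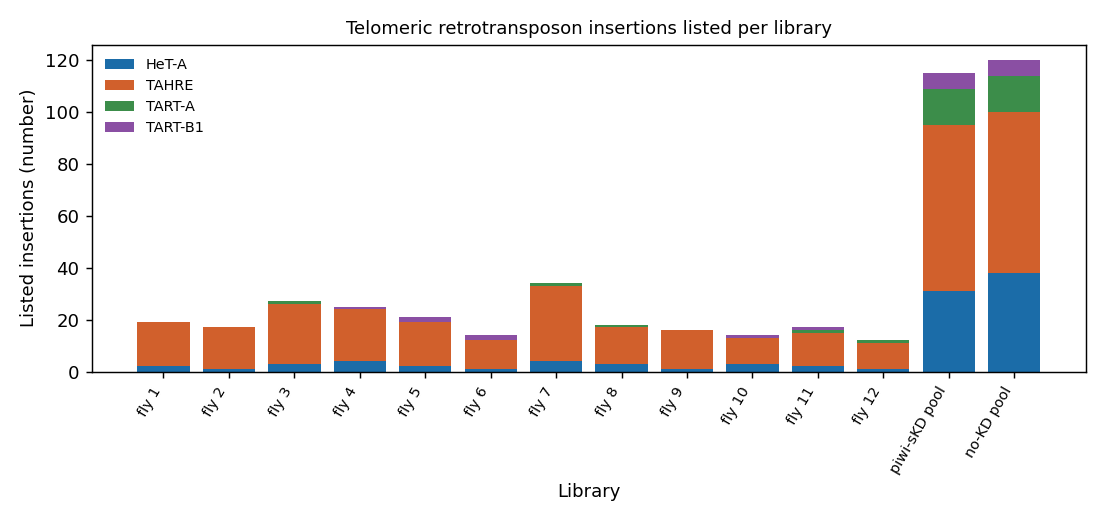
Number of listed insertions (vertical axis) of HeT-A, TAHRE, TART-A and TART-B1 in each library (horizontal axis: the 12 single flies, then the piwi-sKD pool and the no-KD pool). TAHRE is the largest part of every bar, with 10 to 29 insertions in a fly, and HeT-A stands at 1 to 4 in a fly, at 31 in the piwi-sKD pool and at 38 in the no-KD pool.

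Within the telomeric elements, TAHRE made up 83.0% ± 6.93 (SD, n = 12) of a fly's insertions, and 55.7% of those in the piwi-sKD pool against 51.7% in the no-KD pool. HeT-A made up 11.4% ± 4.66 (SD, n = 12) in a fly, and 27.0% in the piwi-sKD pool against 31.7% in the no-KD pool. As a share of all insertions, HeT-A lay between 0.101% and 0.482% in the flies, below both the 0.608% of the piwi-sKD pool and the 0.872% of the no-KD pool. TART-A was also lower in every fly, at 0 to 0.186%, than in the piwi-sKD pool (0.275%) and the no-KD pool (0.321%). Of the 115 families with at least 10 insertions, 20.9% had all flies below both pools and 12.2% had all flies above both, so that this separation was shared by many families. TAHRE and TART-B1 overlapped between flies and pools. The part of depth, read length and site in these differences was not tested.

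The insertions of these elements lay near chromosome ends. The telomeric end is the start of X, 2L and 3L and the end of 2R, 3R and 4 in the reference. Over all libraries 364 of the 469 insertions (77.6%) were within 100 kb of such an end, against 81 of 19957 (0.406%) for the other families. Within 50 kb there were 131 (27.9%), against 0.135% for the other families, so that the share depends on the window. By family the share was 89.5% for TART-B1, 82.6% for TAHRE, 76.0% for HeT-A and 27.3% for TART-A. These shares count Y and mitochondrial insertions, for which no telomeric end was set, as not terminal. Of the insertions on arms alone, 17 of 17 were terminal for TART-B1, 73 of 83 (88.0%) for HeT-A, 265 of 307 (86.3%) for TAHRE and 9 of 16 (56.2%) for TART-A, against 0.426% for the other families. The telomeric elements made up 364 of the 445 insertions of any family in these windows (81.8%). Of the 115 families with at least 10 insertions, 98 had none there. The highest share outside the telomeric elements was 9.24% of 303 insertions, for the I-element, a non-LTR retrotransposon known for hybrid dysgenesis. Among the other jockey-clade families with at least 10 insertions, 21 in number, the median share was 0 and the highest was 5.69%, for Doc2-element. In the piwi-sKD pool 78 of 115 telomeric insertions (67.8%) were in the windows, and in the no-KD pool 77 of 120 (64.2%), while the other families had 0.482% there in the piwi-sKD pool against 0.425% in the no-KD pool.

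**Figure D2:**
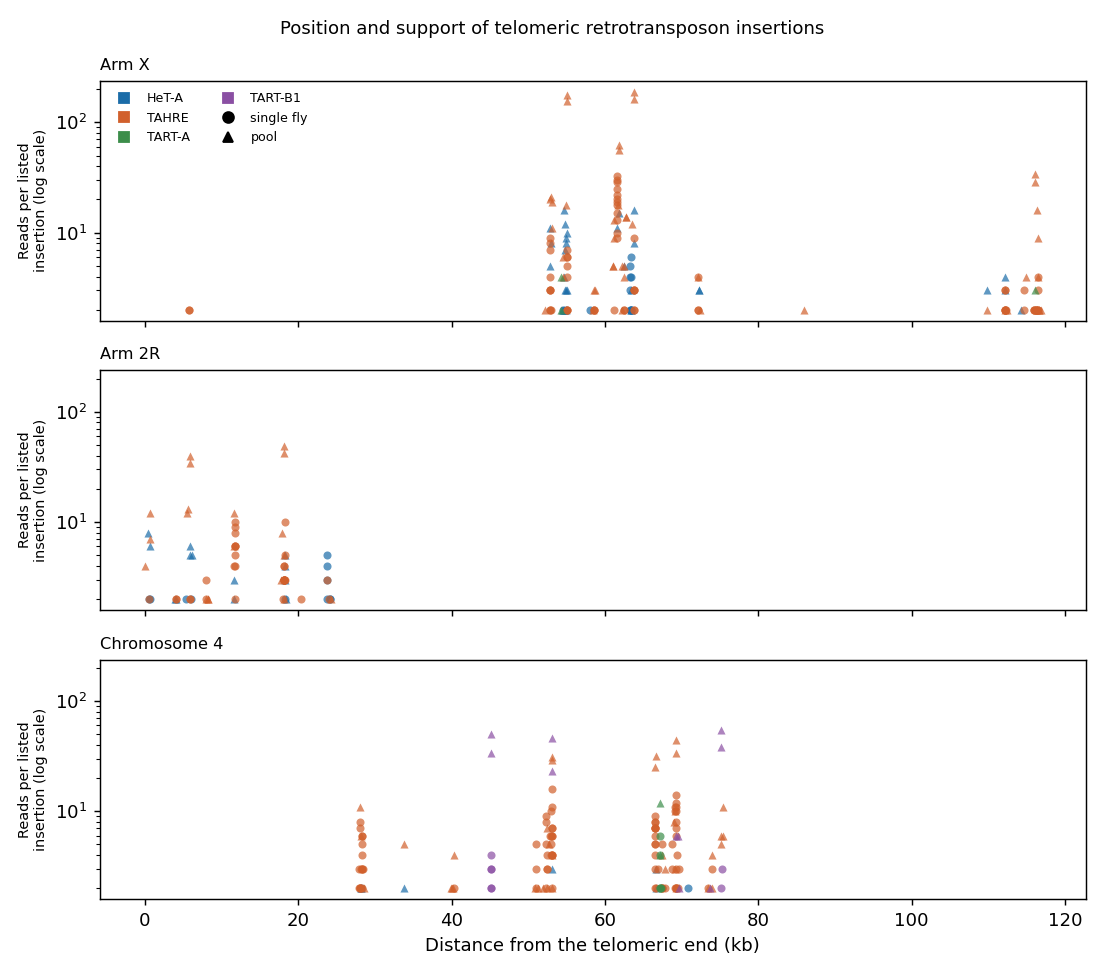
Reads per listed insertion (vertical axis, log scale) against the distance from the telomeric end in kb (horizontal axis, to 120 kb) on X, 2R and chromosome 4, with families in colour, single flies as circles and pools as triangles. The insertions form narrow stacks at shared positions, on X with 111 of the 159 plotted between 52.2 and 63.8 kb and 38 beyond 100 kb, on 2R within 24.3 kb, and on chromosome 4 between 27.98 and 75.4 kb.

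In each of the 12 flies this placement held. A fly had 75% to 100% of its telomeric insertions within 100 kb of a telomeric end, with a median of 88.6%, against 0.172% to 0.622% of its other insertions. The mean was 89.6% ± 6.69 for the telomeric elements and 0.355% ± 0.150 for the other families (SD, n = 12 each), a difference of 89.2 percentage points that was higher in 12 of 12 flies (exact sign-flip permutation test, two-sided, p = 0.000488, adjusted p = 0.0013 over 8 measures). This p is the smallest that 12 flies can give. With a window of 50 kb the means were 32.6% for the telomeric elements and 0.110% for the other families, with the same p. No telomeric insertion of a fly lay within 100 kb of the opposite, centromeric end of an arm, against 1.32% ± 0.147 of the other insertions (SD, n = 12, exact sign-flip test, adjusted p = 0.0013). With only 12 to 34 telomeric insertions in a fly, 0 is the usual count at so small a share. That test therefore cannot show whether the telomeric elements were rarer at the centromeric end. The flies share ancestors and loci, so that these p-values concern the 12 flies of 1 line, and they are not 12 independent sets of insertions.

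Chromosome 4, the small and largely heterochromatic chromosome, held 29.4% to 66.7% of the telomeric insertions of a fly with a median of 40.6%, against 2.40% to 3.43% of the other insertions. The groups did not overlap, and the mean was 42.7% ± 10.04 for the telomeric elements and 2.83% ± 0.274 for the other families (SD, n = 12 each, exact sign-flip permutation test, two-sided, adjusted p = 0.0013, higher in 12 of 12 flies). For HeT-A alone, with 1 to 4 insertions in a fly, the difference was 2.04 percentage points and did not pass the test. In the pools chromosome 4 held less of the telomeric insertions than in any fly, 27.0% in the piwi-sKD pool against 20.0% in the no-KD pool. The other families had 2.47% and 2.29% there. All 97 telomeric insertions of the flies on chromosome 4 lay within 100 kb of its telomeric end. The tests of chromosome 4 and of placement near an end therefore rest in part on the same insertions. The share on Y was 1.64% ± 2.62 for the telomeric elements and 1.70% ± 0.281 for the other families (SD, n = 12 each, exact sign-flip test, adjusted p = 0.937), and rested on 4 telomeric insertions, 1 in each of 4 flies. A support of only 2 reads was found for 40.4% ± 7.76 of the telomeric insertions and 48.8% ± 4.91 of the others (SD, n = 12 each), lower in 9 of 12 flies (exact sign-flip test, adjusted p = 0.0215). Without chromosome 4, or against the other jockey-clade families alone, that difference no longer passed the test.

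**Figure D3:**
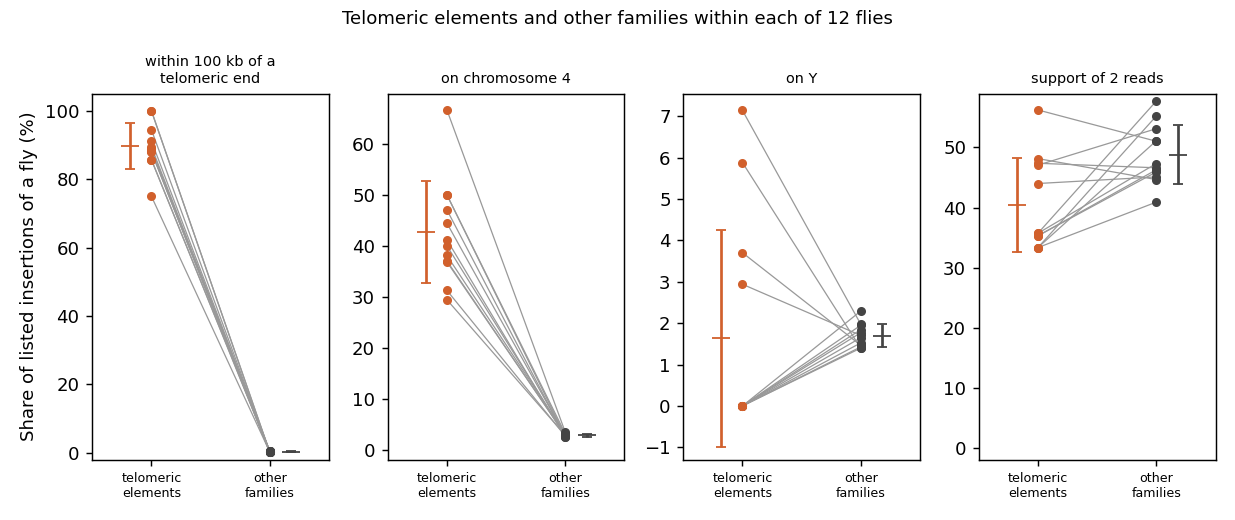
Share of the listed insertions of a fly (vertical axis, %) for telomeric elements on the left of each panel and other families on the right, by position near a telomeric end, on chromosome 4, on Y and by support of 2 reads. Points are the 12 flies, lines join the values of 1 fly, and bars give the mean and SD. The first panels show no overlap (75% to 100% against 0.172% to 0.622%, and 29.4% to 66.7% against 2.40% to 3.43%), whereas the others overlap.

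When insertions of the telomeric families less than 500 bp apart were joined over all libraries, 64 loci resulted, of which 30 lay within 100 kb of a telomeric end. Those on X, 2R and 4 numbered 28 and held 346 insertions. The 5 loci with the most reads carried 2085 of 4217 reads (49.4%). These numbers depend on the joining distance, because most loci consist of several listed breakpoints.

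X had 9 loci within 100 kb of its telomeric end, with 121 insertions of 40 HeT-A, 79 TAHRE and 2 TART-A. The outermost was seen at 5716 to 5726 as TAHRE, with 2 reads in each of 2 flies and in neither pool. A dense group followed at 52212 to 63809, with 111 of the 121 insertions. The TAHRE locus at 60987 to 62771 was also listed as HeT-A in both pools but in no fly. It was seen in all 12 flies with 9 to 35 reads and a median of 19.5. It had 126 reads in the piwi-sKD pool against 117 in the no-KD pool. It made up 14.8% to 34.7% of a fly's telomeric reads, and 7.45% of those in the piwi-sKD pool against 8.26% in the no-KD pool. Every fly listed TAHRE at 61547 to 61674. The strongest breakpoint of the locus was at 61819 in the piwi-sKD pool and at 61837 to 61876 in the no-KD pool. The neighbouring locus at 63289 to 63809 was also seen in all 12 flies, but with 2 to 11 reads and a median of 3.5. It had 208 reads in the piwi-sKD pool against 186 in the no-KD pool. Its share was 1.11% to 12.1% of a fly's telomeric reads, and 12.3% in the piwi-sKD pool against 13.1% in the no-KD pool. In the flies this locus joins HeT-A at 63289 to 63422, listed in 9 flies, with TAHRE at 63809, listed in 6. Neither was listed in all 12 flies. The locus at 54220 to 55027 had 227 reads in each pool and was seen in 9 flies with at most 7 reads. Thus the loci that led the pools by reads were not those that led the flies. In both pools the breakpoint at 55025 was the same base, with 157 reads in the piwi-sKD pool against 178 in the no-KD pool, and the strongest breakpoint of the piwi-sKD pool, at 63793 with 189 reads, was 1 base from an insertion of the no-KD pool at 63794 with 162 reads.

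The other X loci were weaker. The locus at 52799 to 53125 was seen in 10 flies, with 51 reads in the piwi-sKD pool against 44 in the no-KD pool. That at 58088 to 58740 was seen in 4 flies, with 6 reads in the piwi-sKD pool against 2 in the no-KD pool. That at 72134 to 72380 was seen in 3 flies, with 3 reads in the piwi-sKD pool against 9 in the no-KD pool. Single insertions of 2 reads at 52212 and 85926 were listed in the piwi-sKD pool only. Just outside the 100 kb window, X had 4 more loci between 109757 and 116822 with 38 insertions. The strongest of them, at 115929 to 116822, was seen in 7 flies and had 52 reads in the piwi-sKD pool against 51 in the no-KD pool. With a window of 120 kb, 229 of the 234 telomeric insertions of the flies (97.9%) counted as terminal, and with one of 50 kb 78 (33.3%) did. None of the X loci within 100 kb overlapped a gene of the RefSeq gene table. The nearest genes were SteXh:CG42398 and lncRNA:CR40469.

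Chromosome 4 had 11 terminal loci with 150 insertions, namely 118 TAHRE, 17 TART-B1, 8 HeT-A and 7 TART-A. The locus at 1278427 to 1279340 was seen in all 12 flies with 2 to 22 reads and a median of 10, and had 59 reads in the piwi-sKD pool against 56 in the no-KD pool. That at 1280306 to 1281588 was seen in all 12 flies with 4 to 17 reads and a median of 9.5, and had 53 reads in the piwi-sKD pool against 32 in the no-KD pool. That at 1295019 to 1296149 was seen in all 12 flies with 4 to 21 reads and a median of 10, and had 91 reads in the piwi-sKD pool against 63 in the no-KD pool. Each of these 3 loci took 10.1% to 11.9% of the telomeric reads of the flies together and 3.13% to 5.38% of those in the piwi-sKD pool, against 2.26% to 4.45% in the no-KD pool. The locus nearest to the end, at 1319595 to 1320141, was seen in 11 flies with at most 9 reads, and had 10 reads in the piwi-sKD pool against 13 in the no-KD pool. It lay 27.98 kb from the end.

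TART-B1 was found on chromosome 4 in 17 of its 19 insertions. Its own locus at 1302979 to 1303025 carried no other name in any list, was seen in 5 flies with at most 4 reads, and had 50 reads in the piwi-sKD pool against 34 in the no-KD pool. A shared TAHRE and TART-B1 locus at 1272752 to 1273034, less than 1 kb from Cadps, the gene of a protein of dense-core vesicle release, was seen in 2 flies and had 71 reads in the piwi-sKD pool against 49 in the no-KD pool. All 5 TART-A insertions of the flies lay in the locus at 1280306 to 1281588. The remaining terminal loci of chromosome 4 were weak. They lay at 1274135 to 1274737, 1277242, 1296850 to 1297277, 1307790 to 1308146 and 1314342 to 1314344, were seen in at most 3 flies, and had 0 to 6 reads in the piwi-sKD pool and 0 to 6 in the no-KD pool. None of the terminal loci of chromosome 4 overlapped a gene.

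On 2R, 75 insertions in 8 loci lay in the outer 24.3 kb, all HeT-A (24) or TAHRE (51). The outermost insertion, at 25286930, itself sets the end of the arm used here, so that its distance of 0 is by construction. The locus at 25275207 to 25275276 was seen in 10 flies with at most 10 reads and a median of 5.5, and had 15 reads in the piwi-sKD pool against 8 in the no-KD pool. The locus at 25268532 to 25269132 was seen in 9 flies, and had 69 reads in the piwi-sKD pool against 54 in the no-KD pool. The locus at 25280837 to 25281499 was seen in 4 flies, and had 57 reads in the piwi-sKD pool against 58 in the no-KD pool. The locus at 25262589 to 25263181, listed mostly as HeT-A, was seen in 5 flies with up to 10 reads, was not listed in the piwi-sKD pool and had 2 reads in the no-KD pool. Those at 25266576, 25278712 to 25279000, 25282801 to 25282931 and 25286228 to 25286930 were seen in 1 to 3 flies, and the last of them had 15 reads in the piwi-sKD pool against 22 in the no-KD pool. The nearest gene to all 8 loci was CG9380, at least 7271 bp away, and none overlapped a gene.

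The other arms had few telomeric insertions. On 2L a TAHRE locus at 7518 to 7802, which overlapped the span of CR11023, was seen in 10 flies with 0 to 5 reads and a median of 2.0. It had 19 reads in the piwi-sKD pool against 18 in the no-KD pool. On 3L the locus at 46046 to 46344 was seen in no fly, and had 10 reads in the piwi-sKD pool against 8 in the no-KD pool. On 3R there was none, although 14 insertions of other families were listed within 100 kb of its end. Terminal loci thus lay on 5 of the 6 arms, with all but 18 of the 364 insertions on X, 2R and 4. How far the reference of each arm reaches into its telomeric array was not checked. These counts, and the share on chromosome 4, therefore do not compare the arms by their numbers of copies.

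Y carried 17 loci of telomeric elements, of which 3 were seen in flies. Y held 18 of the telomeric insertions in the piwi-sKD pool (15.7%) against 22 in the no-KD pool (18.3%), and 4 of the 234 in the flies. Over all families together, Y took 1.38% to 2.24% of a fly's insertions, while its share was 6.89% in the piwi-sKD pool against 6.93% in the no-KD pool. The part of sex and depth in this was not tested. TART-A led on Y, with 8 insertions and 323 reads in the piwi-sKD pool (88.3% of its reads) and 9 insertions and 233 reads in the no-KD pool (89.6%), and none in any fly. Its strongest locus, at 3019025 to 3019588, had 215 reads in the piwi-sKD pool against 154 in the no-KD pool, and was the fourth of all loci by reads. A second, at 3054789 to 3054817, had 75 reads in the piwi-sKD pool against 57 in the no-KD pool. The nearest genes were FDY and CR41504. The few Y loci of the flies were named HeT-A or TAHRE, had 2 to 5 reads in a fly and were listed in neither pool.

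Outside the terminal windows and off Y and X, 11 loci with 21 insertions remained on 2R, 3L, 3R and 4, and 1 of them was seen in a single fly. One, a TART-A locus at 25301 to 25307 of chromosome 4, lay near the opposite end of that chromosome. TART-A lay in stw, the gene of a laccase of cuticle tanning, with 21 reads in the piwi-sKD pool against 12 in the no-KD pool at 2R 5425414 to 5425433. It also lay in nxf2, the gene of a nuclear export factor paralogue that acts with Piwi in silencing and is known to share sequence with TART-A, with 2 reads in the piwi-sKD pool against 5 in the no-KD pool at 3L 16577614 to 16577694. HeT-A was listed in Snap25, a gene of synaptic vesicle fusion, with 10 reads in each pool. In Myo81F, a very long myosin gene in the heterochromatin of 3R, there were 4 loci with at most 11 reads in the piwi-sKD pool against 5 in the no-KD pool. In all, 9 of the 64 loci overlapped a gene span, the other genes being CR11023 and kl-2, a dynein gene of Y. In the no-KD pool, 2 TART-B1 insertions of 2 reads each were listed in the mitochondrial genome. Over all libraries the other families had 155 there, 0.777% of their insertions against 0.426% for the telomeric elements. By the methods of the study, an insertion predicted in 1 library only may be real or may come from chimeric fragments made in library preparation. Which of the listed insertions are of that kind was not tested.

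The names HeT-A and TAHRE could not always be told apart at 1 place. Of the 64 loci, 28 carried more than 1 family name and 24 carried both HeT-A and TAHRE. Among 777 pairs of telomeric insertions of different libraries within 20 bp of each other, 133 (17.1%) had different names, against 5.74% of 37109 such pairs of the other families. HeT-A with TAHRE made 114 of these pairs, against 46 pairs of HeT-A with itself and 565 of TAHRE with itself. A TAHRE insertion lay within 20 bp of 38 of the 96 HeT-A insertions (39.6%), and a HeT-A insertion within 20 bp of 94 of the 321 TAHRE insertions (29.3%). At the X locus at 63289 to 63809 HeT-A was listed in 9 flies, at 63289 to 63422, and TAHRE in 6, at 63809. Within the flies these names thus belonged to different breakpoints. At 63809 both pools listed HeT-A, with 16 reads in the piwi-sKD pool against 8 in the no-KD pool. For the strongest breakpoint of the locus both pools gave TAHRE. The counts of the single families are therefore less certain than their sum.

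To ask whether new copies of these elements were found after piwi-sKD, insertions present in 1 pool with no insertion of the other pool within 20 bp were compared by family. The telomeric elements had 49 such insertions in the piwi-sKD pool against 49 in the no-KD pool. HeT-A had 11 in the piwi-sKD pool against 14 in the no-KD pool, a ratio of 0.786 (exact 95% interval 0.323 to 1.86). TAHRE had 31 in the piwi-sKD pool against 29 in the no-KD pool, a ratio of 1.07 (0.623 to 1.84). TART-A had 5 in the piwi-sKD pool against 4 in the no-KD pool, a ratio of 1.25 (0.269 to 6.30). TART-B1 had 2 in each and was too rare to test. These ratios and intervals are of the counts alone, whereas Fisher's exact test sets a family against all other families. Its odds ratio was 0.583 for HeT-A (Fisher's exact test p = 0.224), 0.793 for TAHRE (Fisher's exact test p = 0.431) and 0.930 for TART-A. The adjusted p was 1 for each tested family. Over all families the ratio was 1.34, and of 114 families tested 0 had an adjusted p under 0.05 (0% called), with 2 at an unadjusted p under 0.05. ZAM and gtwin, for which the study reports new insertions, were not called either. ZAM had 10 in the piwi-sKD pool against 2 in the no-KD pool, and gtwin 9 against 2 (Fisher's exact test, adjusted p = 0.945 for each). The test therefore could miss gains of that size at such counts. For the 21 other families of the jockey clade that were tested the median ratio was 1.59, and 1 had an unadjusted p under 0.05. The test compares 2 libraries and not the conditions, and the intervals leave room for a change in either direction. Before its own comparison the study drew reads of the piwi-sKD pool at random to match the number in the no-KD pool. No such matching was done here, and the pools differ in depth.

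Of the 49 in the piwi-sKD pool, 41 lay within 500 bp of a telomeric insertion of the no-KD pool, and of the 49 in the no-KD pool, 39 lay within 500 bp of one in the piwi-sKD pool. An insertion of the same family lay within 500 bp for 69.4% of the telomeric ones in the piwi-sKD pool against 71.4% in the no-KD pool. For the other families this share was 49.9% in the piwi-sKD pool against 63.1% in the no-KD pool, so that such neighbours were common in all families. Pool-specific insertions were 42.6% of the telomeric insertions in the piwi-sKD pool against 40.8% in the no-KD pool, while over all families they were 56.3% in the piwi-sKD pool against 49.0% in the no-KD pool. Counting all insertions, specific or not, the ratio of the piwi-sKD pool to the no-KD pool was 0.816 for HeT-A, 1.03 for TAHRE, 1.00 for TART-A and 1.00 for TART-B1, against 1.17 for all families together. None passed Fisher's exact test after adjustment (118 families tested, 0% called, 1 at an unadjusted p under 0.05). At 10 or more reads the piwi-sKD pool had 8 HeT-A insertions among 38 telomeric and 1271 in all, and the no-KD pool had 2 among 30 telomeric and 1060 in all. On the deposited scale of the no-KD support, which the authors had scaled up, a minimum of 10 left 3 HeT-A insertions among 34 telomeric and 1191 in all. The pools differ in depth, and these small counts were not tested.

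Most of the loci were shared by the pools. Both pools had 45 of the 64 loci, the piwi-sKD pool alone had 5 with at most 7 reads, the no-KD pool alone had 8 with at most 5 reads, and 6 were seen only in flies. No locus with 10 or more reads was in 1 pool only. With insertions joined within a family, so that other families could be treated alike, 61.9% of 97 telomeric loci were in both pools, 14.4% in the piwi-sKD pool alone and 14.4% in the no-KD pool alone, against 42.6%, 25.9% and 14.7% of the 5180 loci of other families. This difference was not tested. The ratio of reads, piwi-sKD pool over no-KD pool, had a median of 1.33 over the shared loci, from 0.200 to 5.50, and was above 1 at 33, below 1 at 7 and equal at 5. All supporting reads of the libraries together had a ratio of 1.24. Of the shared loci, 14 had at least 20 reads in each pool, and their ratios ran from 0.983 to 1.66 with a median of 1.22. Over the 45 loci, Pearson's r of the log2 reads of the pools was 0.92, as a description of loci that share both libraries.

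**Figure D4:**
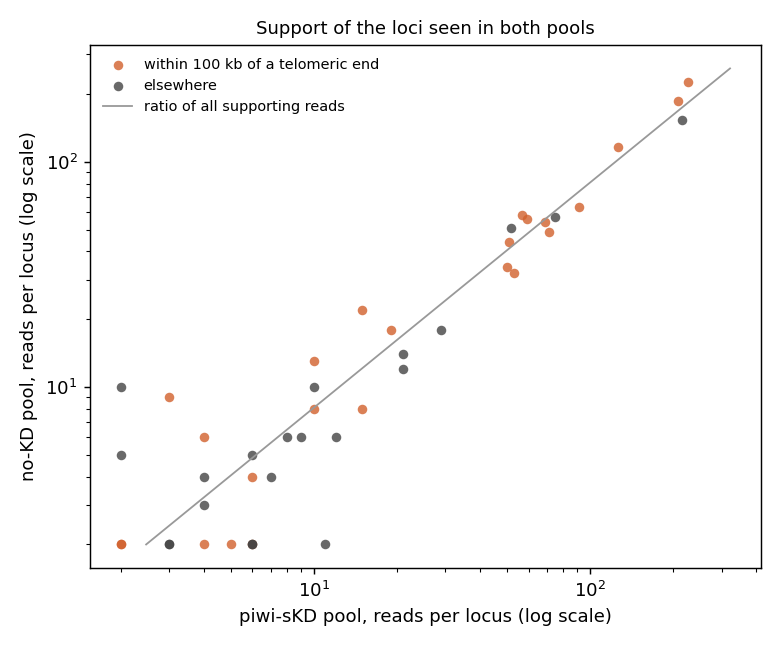
Reads per locus in the piwi-sKD pool (horizontal axis, log scale) and in the no-KD pool (vertical axis, log scale) for the 45 loci of telomeric elements seen in both pools, with loci within 100 kb of a telomeric end in orange and others in grey. The line marks the ratio of all supporting reads, 1.24, and loci with at least 20 reads in each pool have ratios of 0.983 to 1.66.

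Among the 12 flies the telomeric loci ranged from shared by all to seen once. Of the 64 loci, 33 were seen in at least 1 fly, and 26 of these were terminal. All 12 flies had 5 loci, which are the 3 on chromosome 4 and the 2 on X given above, and 9 loci were seen in 10 or more flies. The 11 loci seen in 9 or more flies were all terminal. Only 1 fly had the locus for 7 loci, and 31 loci were seen in no fly. Of these 31, 4 were terminal, 14 lay on Y, 2 in the mitochondrial genome and 11 elsewhere on the arms. When insertions were joined within a family, 44.3% of the telomeric loci were seen in flies, against 46.4% of the loci of other families. Of those seen, 4 of the 43 telomeric loci of the flies (9.30%) were in all 12 flies and 11 (25.6%) in 1 fly, against 92 (3.83%) and 957 (39.8%) of the 2402 loci of other families. Private insertions, with no insertion of another fly or of the no-KD pool within 20 bp, were 13.8% ± 7.19 of the telomeric insertions of a fly, 34 in all, and 15.5% ± 2.65 of the others (SD, n = 12 each, exact sign-flip permutation test, two-sided, adjusted p = 0.482). A partner within 20 bp in the piwi-sKD pool was found for 45.4% ± 11.4 of the telomeric insertions and 49.3% ± 3.86 of the others (SD, n = 12 each, exact sign-flip test, adjusted p = 0.336). A partner in the no-KD pool was found for 41.2% ± 9.88 of the telomeric insertions and 47.5% ± 2.85 of the others (SD, n = 12 each, exact sign-flip test, adjusted p = 0.0883). These 3 measures had no settled direction. At 3 or more reads the telomeric elements were lower for a partner in the piwi-sKD pool (adjusted p = 0.00859 by the exact sign-flip test) and in the no-KD pool (adjusted p = 0.00391), and higher for private insertions (adjusted p = 0.0482). With a window of 500 bp they were higher for a partner in the piwi-sKD pool (adjusted p = 0.00326 by the exact sign-flip test) and in the no-KD pool (adjusted p = 0.00195), and lower for private insertions (adjusted p = 0.00313).

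**Figure D5:**
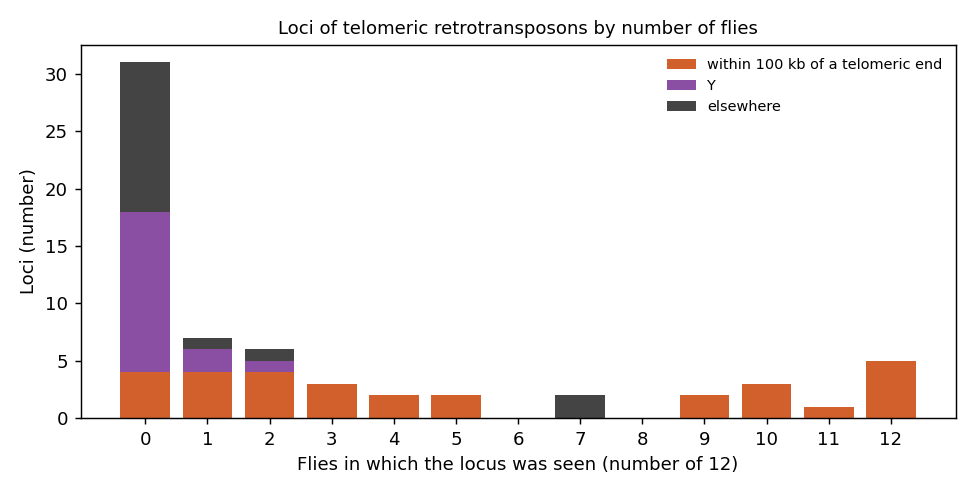
Number of loci of telomeric elements (vertical axis) by the number of flies in which they were seen (horizontal axis, 0 to 12), with loci within 100 kb of a telomeric end, on Y and elsewhere in different colours. All 11 loci seen in 9 or more flies are terminal, and of the 31 loci seen in no fly 4 are terminal, 14 are on Y and 13 are elsewhere.

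The number of telomeric insertions in a fly went with the number of its other insertions. Over the 12 flies, which had 12 to 34 telomeric insertions, Pearson's r was 0.629 (permutation p = 0.0281, adjusted p = 0.0281). Spearman's rho was 0.747 (permutation p = 0.00684, adjusted p = 0.0137). Without the 2 flies farthest from the median number of other insertions, fly 5 and fly 12, r was 0.654 (n = 10, permutation p = 0.0406). Fly 7, with 34 telomeric insertions among 1032, had the highest share (3.29%), and fly 6, with 14 among 988, the lowest (1.42%). The families whose number per fly ran most alike with that of the telomeric elements were diver2 (Spearman's rho 0.88), Transpac (0.88) and roo (0.81), all LTR retrotransposons, among 93 families ranked with a median of 0.50. All of these counts share the depth of the fly's library.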

How the data were processed

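The authors mapped the paired reads to dm6 with BWA (0.7.5a-r405 for the pools, 0.7.10-r789 for the flies) and searched for non-reference TE insertions with the T-lex *de novo* pipeline, which assigns clipped or unpaired read parts to the ends of canonical TE sequences. For the flies and the piwi-sKD pool, the authors deposited a count of supporting reads per insertion. For the no-KD pool they deposited a scaled signal, 100% of whose values are whole multiples of 1.23 (tolerance 1e-06 of a read), and it was divided by 1.23. That factor was read from the values. Whether coordinates start at 0 or 1 is not given in the sources used here.

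The groups followed the titles of the samples. Genes were placed by the RefSeq table of Release 6. The end of each arm was the largest coordinate in the lists or that table. A share of insertions on unplaced contigs had been planned as another measure, but the lists hold only the arms, Y and the mitochondrial genome, so 8 measures were tested.

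Insertions of 2 libraries matched within 20 bp, whatever the family, and loci joined telomeric insertions within 500 bp. Fisher's exact test (two-sided) compared each family, with at least 5 insertions, with all others between the pools, with Benjamini-Hochberg adjustment over all families. Ratios have exact 95% intervals and shares have Wilson intervals. Flies were compared by the exact sign-flip permutation test over all 4096 sign patterns, and correlations by 100000 permutations. Fisher's test by family and the sign-flip test were tried on simulated data, and the matching and joining on a few known intervals. The correlations, the intervals and the distances from arm ends were not tried in this way. The loci named were those seen in 10 or more flies, the 5 with the most reads, all within 100 kb of a telomeric end, and any with 10 or more reads in 1 pool only. Other loci in genes, on Y and beside the 100 kb limit were named after their values had been seen. The families, lists and measures were chosen with earlier results of these data known. Alternatives were other windows, joining distances, support minimums, arms and comparison families. Leaving out chromosome 4 or X, and the pool composition by support on either scale, were added after seeing the data. Python 3.11.15, numpy 2.4.6, pandas 2.3.3, scipy 1.17.1 and matplotlib 3.10.9 were used. No sequences are shown, as none were used here.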

Additional observations from a re-analysis of the deposited data

How the results depend on the processing

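No paired analysis was possible because neither pool has a replicate, and the fly tests are already within fly. The number of families called between the pools was 0 under every alternative run, with 0 to 3 at an unadjusted p under 0.05, and the adjusted p of the telomeric families was 0.857 to 1. Their odds ratios for pool-specific insertions crossed 1 as follows: HeT-A from 0.583 to 1.17 at 3 or more reads and 2.07 at 5 or more, TAHRE from 0.793 to 1.01 at 5 or more, TART-A from 0.930 to 1.11 on arms only and 1.30 at 3 or more. For all insertions, HeT-A reached 1.32 and TAHRE 1.02 at 5 or more reads, TART-A 1.02 on arms only, and TART-B1 1.495 at 3 or more, 1.51 at 5 or more and 1.28 on arms only. The difference in the share near a telomeric end was 32.5 percentage points with a window of 50 kb and up to 96.3 under the other alternatives, with an adjusted p of at most 0.00195.

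Differences of the other measures, in percentage points, changed more. On Y, the difference of -0.06 became 0.244 with insertions merged within 500 bp, 0.268 against jockey-clade families, 5.24 for HeT-A only, 1.27 without chromosome 4 and 0.254 without X. On chromosome 4 it was 2.04 for HeT-A only. For a support of 2 reads it was -4.18 against jockey-clade families, 21.4 for HeT-A only and -2.02 without chromosome 4. For a partner in the no-KD pool it was -20.8 at 3 or more reads, 10.9 with a window of 500 bp and -11.8 without X. For a partner in the piwi-sKD pool it was -16.2 at 3 or more reads, 2.07 merged, 9.16 with a window of 500 bp, 0.372 against jockey-clade families, 0.0246 without chromosome 4 and -10.3 without X. For private insertions it was 7.75 at 3 or more reads, -5.50 merged, -4.47 with a window of 500 bp, 12.96 for HeT-A only and 0.588 without X. Of these, the differences for a partner in either pool passed the test at 3 or more reads, with a window of 500 bp and without X (adjusted p 0.00195 to 0.0215), and those for private insertions at 3 or more reads, merged and with a window of 500 bp (0.00313 to 0.0482). The causes were not tested.

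Joining within 20 bp, 100 bp or the same family gave 187, 119 and 97 loci, of which 125, 69 and 55 were terminal and 109, 67 and 54 were seen in no fly. Loci in all 12 flies numbered 2 within 20 bp, 3 within 100 bp and 3 within 2000 bp. The 45 loci in both pools stayed between 36 and 60. The correlation across flies kept its side of the threshold (r 0.602 to 0.646). Depth limits all statements on absence, since 2 reads were needed for a listing.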
